A study of Mus musculus with 6 samples.

Results

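Macrophages clear dead cells and debris from wounds and break them down in lysosomes, and their persistence in an inflammatory state is a known feature of slow-healing diabetic skin. The 10 genes described here mark these cells or their lysosomes: Gpnmb, Lyz2, Cd68, Ctss and Lgals3, which serve phagocytosis and digestion, the surface receptors Mrc1, Cd163, Csf1r and Adgre1, and Cd74, which serves antigen presentation. They were chosen by symbol from the 48377 genes of the deposited count table, and all 10 were found. They held 193 counts of the 223495 in the table.

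The libraries came from skin of db/db mice, which lack a working leptin receptor and become obese and diabetic. One group had received vemurafenib (PLX4032), a BRAF kinase inhibitor, for 16 days, and the labels give 1 uM. The other group had received vehicle (DMSO) for 16 days, and each group had 3 libraries. Every animal was of the db/db model, so no comparison with non-diabetic skin is made. Whether each library is a different mouse is not stated in the labels. The p-values therefore reflect variation among these 6 libraries, part of which may be technical.

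RNA was poly(A)-selected, and the libraries were stranded and single-end. Counted totals ran from 20796 to 78434 in the vemurafenib libraries and from 14189 to 48798 in the vehicle libraries, which is very shallow. CPM below are counts scaled to library size with TMM factors, and a zero count allows up to 38.2 to 144 CPM in a vemurafenib library and 61.5 to 211 CPM in a vehicle library (3 counts over the library total, counting error only). On the first principal component (35.6% of the variance) vemurafenib 3 and vehicle 3 lay at opposite ends. Fibroblast markers summed to 28499, 35212 and 16773 CPM in vemurafenib 1, 2 and 3, against 26313, 38359 and 57810.4 CPM in vehicle 1, 2 and 3.

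What a symbol's count stands for is limited by the strand question. Tsix had 704 counts, while Xist, the known abundant RNA on the other strand of that locus, had 35. In a second pair checked for the same reason, Gm37376 had 1548 counts and Malat1 had 612. The strand setting of the counting is not given in the sources used here, so reads from the 2 strands of a locus cannot be told apart by symbol alone. Of the 10 genes, 9 have no annotated exon of another gene opposite their exons, against 24.2% of coding genes that do. The lack of such an exon does not show which strand of these 9 genes was counted. Among the 257 coding genes deep enough for the strictest filter used below, 187 (72.8%) have such exons. Coding genes with them had 2.48 counts per kb of exon, and those without had 1.03. Csf1r is the exception, with 873 bp opposite Hmgxb3, which had 10, 2 and 0 counts in vemurafenib 1, 2 and 3 and 2, 1 and 1 counts in vehicle 1, 2 and 3.

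Several defining macrophage markers were at or near 0. Adgre1, the F4/80 antigen that defines mouse tissue macrophages (17:57358691-57483527, mm10), had 0 counts in all 6 libraries, which allows up to 13.4 CPM over the whole table. Cd68, the classical lysosomal membrane marker (11:69664213-69666153), had 4 counts, and the cysteine protease gene Ctss (3:95526786-95556403) had 2. The pan-leukocyte gene Ptprc had 3 counts, and Itgam and Cd14 had 1 each. Of the 38 other macrophage and monocyte genes listed, 28 had a count. The set is therefore described gene by gene, and its total is not read as an amount of macrophages.

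Levels can be compared between genes only per exon length. With vemurafenib Lgals3 averaged 57.2 ± 26.2 CPM per kb of merged exon, Csf1r 53.3 ± 18.8 and Gpnmb 17.8 ± 22.2 (SD, n = 3). With vehicle Csf1r averaged 57.7 ± 15, Gpnmb 57.3 ± 15.6 and Lgals3 31.5 ± 8.36 CPM per kb (SD, n = 3). Over all 6 libraries Csf1r averaged 55.5 ± 15.4 CPM per kb of merged exon, ahead of Lgals3 at 44.4 ± 22.4 and Gpnmb at 37.6 ± 27.6 (SD, n = 6). Lyz2 followed at 29.2 ± 28.1, Cd74 at 25.2 ± 17.2 and Cd163 at 24.2 ± 16.5 CPM per kb. Ctss (11.9 ± 21.0), Cd68 (11.4 ± 17.8) and Mrc1 (4.49 ± 4.24) came last before Adgre1 at 0. No neighbours in this order over 6 libraries differed beyond their spread. Within each group, the leading gene did not differ from the next beyond their spread either. Across the order, the lowest Csf1r library (35.9 CPM per kb) lay above the highest Mrc1 library (11). Summed over libraries, Csf1r had more counts per kb than 97.6% of 21634 coding genes, and 43.9% of those genes had no count at all. Mrc1 stood above 71.0% of them. Csf1r is the only gene of the set with exons opposite another gene (Hmgxb3), and what part of its counts comes from there was not tested.

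**Figure D1:**
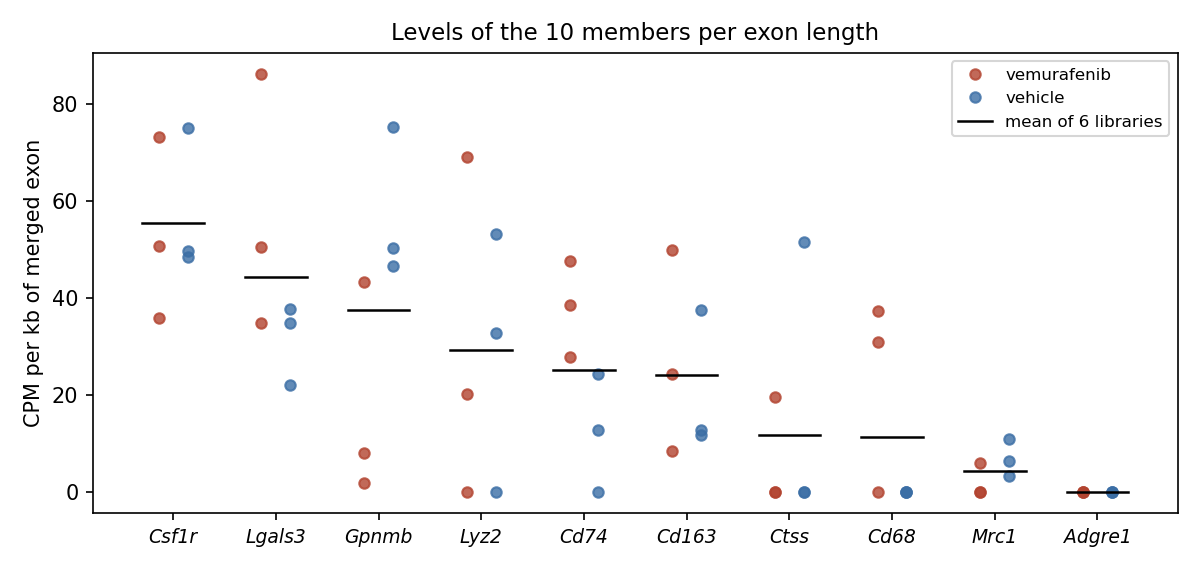
CPM per kb of merged exon for each of the 10 genes, with 1 point per library, vemurafenib left of vehicle within each gene, and a line at the mean of the 6 libraries. Csf1r has the highest mean (55.5) and Adgre1 is at 0 in every library.

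Gpnmb lay lower with vemurafenib and had the largest log2 fold change of the 6 genes with at least 10 counts. Gpnmb encodes a transmembrane glycoprotein of endosomes and lysosomes that macrophages make strongly when loaded with lipid or debris, as in obese fat tissue. The gene (6:49036546-49070929, plus strand) had 1, 6 and 2 counts in vemurafenib 1, 2 and 3, against 8, 7 and 14 counts in vehicle 1, 2 and 3. As CPM these were 13, 282 and 53.3 with vemurafenib and 327, 490.0 and 303 with vehicle. Vemurafenib 1 and 3 were far below every vehicle library, and vemurafenib 2 lay just under the lowest of them. Fewer cells that make Gpnmb and less Gpnmb RNA per cell cannot be told apart in whole skin, for this or any gene below.

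The depth behind these values is small. The single count in vemurafenib 1, the deepest library, gives a 95% exact (Clopper-Pearson) interval of 0.323 to 71.0 CPM of the library total, and the 14 counts in vehicle 3 give 157 to 481. Between vemurafenib 2 (106 to 628) and vehicle 1 (150.3 to 686) the intervals overlapped almost fully. With library totals in place of TMM, vemurafenib 2 stood at 289 and vehicle 3 at 287 CPM, so the groups overlapped on that scale. With TMM the groups did not overlap for Gpnmb, as for 3.68% of the 4697 genes with at least 10 counts (vemurafenib lower). An exact permutation test on the Gpnmb CPM gave p = 0.1, two-sided, the smallest that 3 against 3 libraries allow.

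No gene of the set was counted deeply enough for the strictest filter (edgeR's filterByExpr), which left 477 genes. Among those, edgeR's quasi-likelihood test called 0 genes higher and 0 lower at an adjusted p under 0.05, and 23 had an unadjusted p under 0.05 (14 with DESeq2 and 40 with limma-voom, which also called 0). Of the 10 genes, 6 had at least 10 counts and could be tested among 4697 genes under a looser filter. That fit called 0.0639% of the genes higher and 0% lower with vemurafenib, and with every gene that had at least 1 count it was 0.018% higher and 0% lower. Gpnmb had a log2 fold change of -2.14 ± 0.65 (SE) with an unadjusted p of 0.000937, the 17th smallest of the 4697, and an adjusted p of 0.2405 with edgeR. It did not pass the threshold.

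The call on Gpnmb changed with the test and with 1 library. With limma-voom the log2 fold change was -2.91 ± 0.62 and the adjusted p 0.01941, 1 of 2 genes called lower (0.0426% of those tested). With DESeq2 it was -1.96 ± 0.89 and the adjusted p 0.9998. Without vemurafenib 2, edgeR gave -3.53 ± 0.82 and an adjusted p of 0.0484 under the looser filter, where 0.0456% of genes were called lower, and -3.57 with an adjusted p of 0.2554 under the strict one. Without vemurafenib 1 it gave -1.28 ± 0.67. The log2 fold change was negative in all 14 fits that held the gene, and 2 of the 14 called it. These fits share the same libraries, so their common sign is not repeated evidence.

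**Figure D2:**
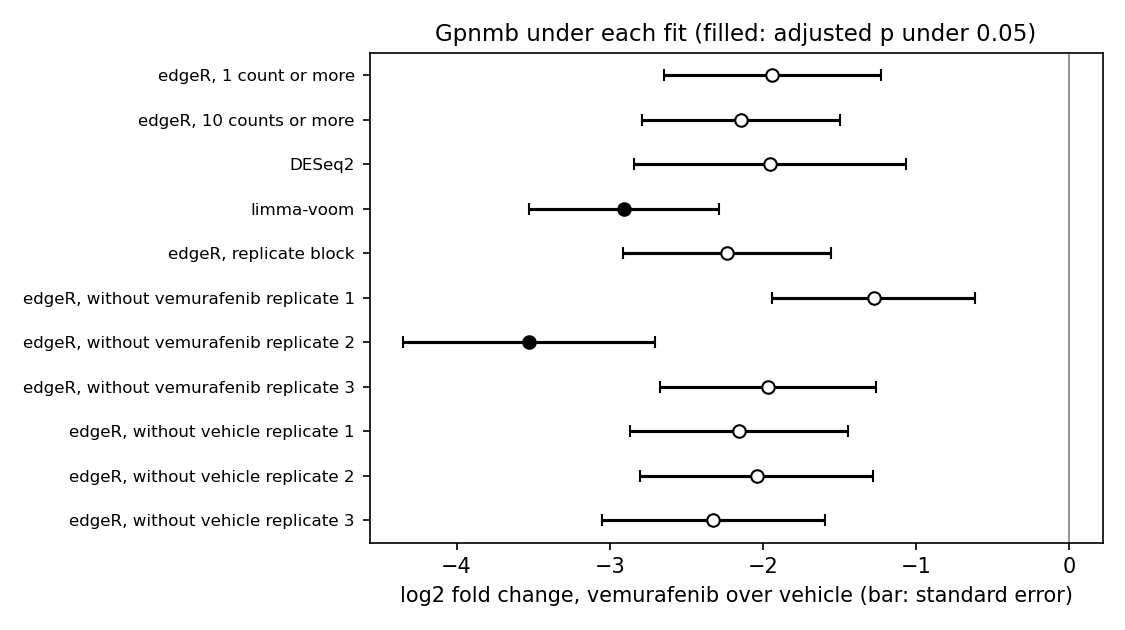
Log2 fold change of Gpnmb, vemurafenib over vehicle, with its standard error as a bar, for each fit on genes with at least 10 counts (the top row with at least 1 count), and filled points where the adjusted p is under 0.05. Every point lies below 0, from -1.28 without vemurafenib 1 to -3.53 without vemurafenib 2.

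Other cells of skin can make Gpnmb, above all melanocytes. The 8 melanocyte markers held 28 counts in all. They summed to 141 to 187 CPM with vemurafenib and 0 to 130 CPM with vehicle. The groups lay apart in this direction for 6.83% of the 4697 single genes with at least 10 counts. The part of these markers in the Gpnmb values was not tested. Of them Mlana, Tyr, Dct and Tyrp1 had 0 counts, and Pmel, a melanosome protein of the same family as Gpnmb that lies opposite exons of Dgka and Cdk2, had 18. The fibroblast totals given above overlapped between the groups. Of the 6 fibroblast markers with at least 10 counts, all 6 had a negative log2 fold change, with a median of -0.56 against 0.09 over all genes in that fit, and their part was not tested either. Without vehicle 3 the log2 fold change of Gpnmb was -2.33 ± 0.73, and without vemurafenib 3 it was -1.97 ± 0.71.

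The start region of Gpnmb is shown because it is the gene with that largest fold change, and because AP-1 factors lie at the nuclear end of the RAF to ERK pathway while MITF/TFE factors are known to drive lysosomal genes. The window (RefSeq, GRCm38.p6, chr6:49036268-49036567, plus strand) runs from 250 bases before to 50 bases after the RefSeq start, and capitals mark the AP-1 letters TGANTCA.
Gpnmb: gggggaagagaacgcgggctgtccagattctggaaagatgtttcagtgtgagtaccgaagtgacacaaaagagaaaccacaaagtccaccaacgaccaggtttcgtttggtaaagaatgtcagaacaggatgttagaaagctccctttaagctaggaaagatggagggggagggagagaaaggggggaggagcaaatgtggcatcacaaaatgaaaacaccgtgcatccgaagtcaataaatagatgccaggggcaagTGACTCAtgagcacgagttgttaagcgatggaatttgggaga
The AP-1 letters occur once, beginning 9 bases into the transcript by the RefSeq start. That start lies upstream of the gene start given above, and the letters lie between these starts. On either strand, 7.81% of 32851 windows of the same kind hold them. The E-box CACGTG and the core CATGTG, both letters that MITF/TFE factors can bind, do not occur in it, while 7.15% and 14.2% of windows hold them, and none of these motifs overlap here. A match of letters is no evidence of binding, and a role of these factors in the Gpnmb values was not tested.

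Csf1r, the receptor for the growth factors CSF1 and IL-34 that keeps macrophages alive, was the most counted gene of the set (18:61100598-61132149) and did not separate the groups. It had 16, 9 and 11 counts in vemurafenib 1, 2 and 3, against 7, 4 and 20 in vehicle 1, 2 and 3. These were 207, 423 and 293 CPM with vemurafenib and 286, 280.0 and 433 CPM with vehicle, and the groups overlapped throughout. The means were 308 ± 108 and 333 ± 86.4 CPM (SD, n = 3 each), and edgeR's log2 fold change was -0.27 ± 0.52 (adjusted p = 0.9994). The SE leaves room for changes of moderate size either way. Its ligands were sparser still, with 5 counts under Csf1 in the vemurafenib libraries and 4 in the vehicle libraries, and with 3 and 4 under Il34. What part of the Csf1r counts comes from Hmgxb3, opposite 873 bp of its exons, was not tested.

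Cd163, the receptor that takes up haemoglobin bound to haptoglobin (6:124304656-124330527), was uneven within both groups. Its 36 counts were 21, 1 and 5 in vemurafenib 1, 2 and 3, and 5, 1 and 3 in vehicle 1, 2 and 3. The CPM were 272, 46.9 and 133 with vemurafenib and 205, 70.0 and 64.9 with vehicle, so both groups held a high library and a low one. The log2 fold change was 0.70 ± 0.67 (edgeR, adjusted p = 0.9994), which became -0.15 without vemurafenib 1 and 1.42 without vehicle 1. Mrc1, the mannose receptor CD206 (2:14229392-14332057), had 3 counts with vemurafenib, all in vemurafenib 1, and 3 with vehicle, 1 in each library.

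Lgals3, the galectin that gathers at damaged lysosomes and is also made by keratinocytes (14:47367751-47386160), had 5, 2 and 6 counts in vemurafenib 1, 2 and 3, against 1, 1 and 3 in vehicle 1, 2 and 3. Its CPM were 64.8, 93.9 and 160.0 with vemurafenib and 40.9, 70.0 and 64.9 with vehicle. The groups overlapped, with vemurafenib 1, the deepest library, below vehicle 2 and level with vehicle 3. The log2 fold change was 0.76 ± 0.91 (edgeR, adjusted p = 0.9994). It became 0.28 without vemurafenib 3 and 1.12 without vemurafenib 1. Keratinocyte markers summed to 2684 to 4533 CPM with vemurafenib and 1103 to 3709.9 CPM with vehicle. Of the 9 with at least 10 counts, 6 had a positive and 3 a negative log2 fold change. Their median was 0.92 against 0.09 over all genes in that fit. The part of these markers in the Lgals3 values was not tested.

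Lyz2, the lysozyme of myeloid cells (10:117277331-117282321), had 7, 0 and 1 counts in vemurafenib 1, 2 and 3, and 0, 1 and 2 in vehicle 1, 2 and 3. With 7 of 11 counts in 1 library, its log2 fold change of 0.59 ± 1.10 (edgeR, adjusted p = 0.9994) says little, and the ratio of mean CPM was 0.05 on the log2 scale. Lyz1, a close copy that could share reads with Lyz2, had 0 counts. Cd68 had 3, 1 and 0 counts in vemurafenib 1, 2 and 3 and none with vehicle, where 3 counts over the pooled vehicle total equal 34.9 CPM. Ctss had 1 count in each group. At this depth no difference in Cd68 or Ctss was detectable.

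Cd74, the invariant chain that guides MHC class II molecules to lysosomes (18:60803848-60812652), had 5, 1 and 3 counts in vemurafenib 1, 2 and 3, against 1, 0 and 1 in vehicle 1, 2 and 3. All 3 vemurafenib libraries (64.8, 46.9 and 80.0 CPM) lay above all 3 vehicle libraries (40.9, 0 and 21.6 CPM), as for 6.83% of the 4697 genes in this direction. Vemurafenib 2 and vehicle 1 differed by no count, since each held 1. The log2 fold change was 1.38 ± 1.17 (edgeR, adjusted p = 0.9994). The MHC class II gene H2-Ab1 had 9, 2 and 2 counts with vemurafenib and 1, 0 and 1 with vehicle, and its groups did not overlap either (log2 fold change 1.84 ± 1.10, adjusted p = 0.9956). The chain gene H2-Eb1 had 4, 0 and 1 counts with vemurafenib and 0 in every vehicle library. Ciita, the master regulator of the class II genes, had 12 counts at 59.6 ± 17.8 and 57.8 ± 31.9 CPM with vemurafenib and vehicle, and lies opposite exons of Dexi.

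**Figure D3:**
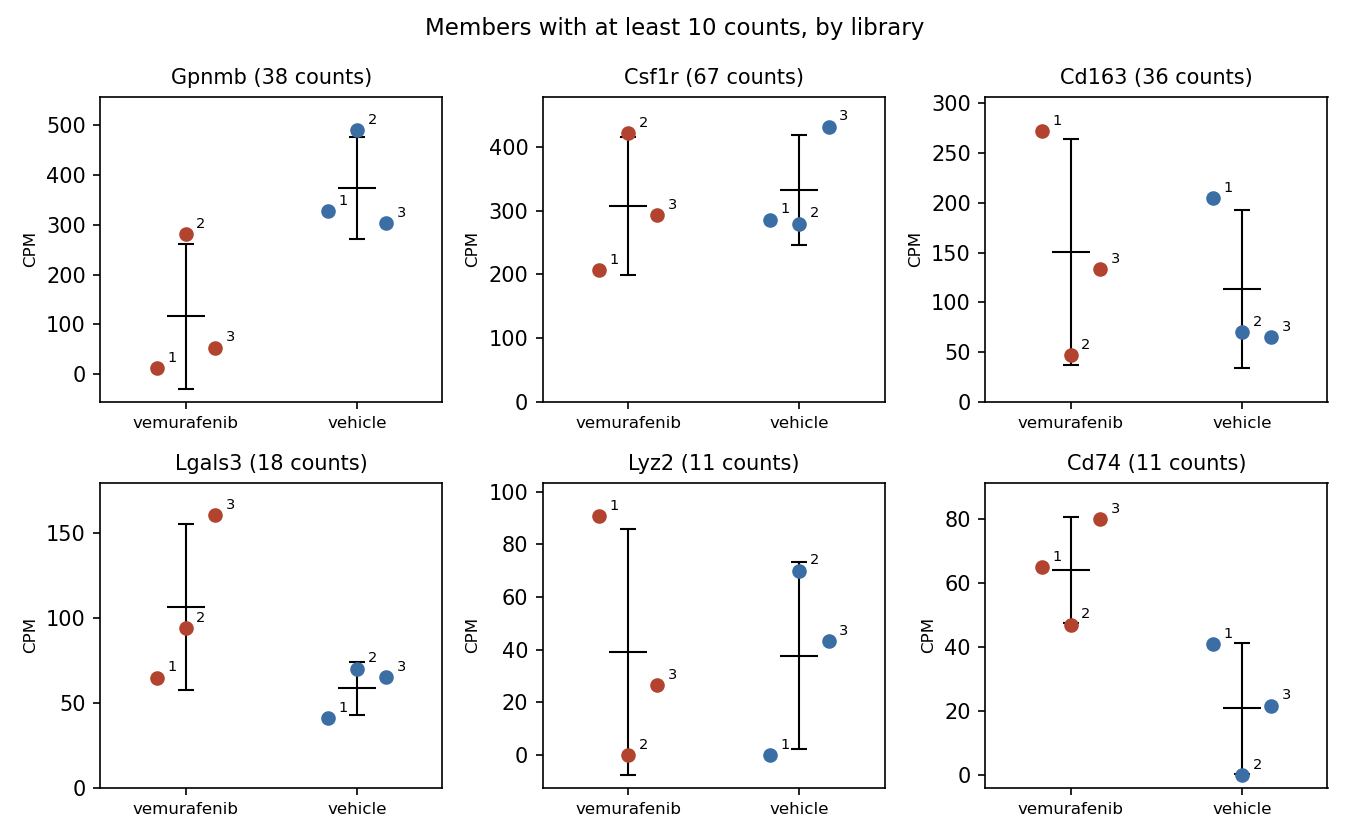
CPM by library for the 6 genes with at least 10 counts, with vemurafenib left of vehicle, replicate numbers beside the points, and the mean and SD (n = 3) as black bars. The groups are apart for Gpnmb (vemurafenib lower) and Cd74 (vemurafenib higher) and overlap for Csf1r, Cd163, Lgals3 and Lyz2.

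Summed, the 10 genes gave 61, 20 and 29 counts in vemurafenib 1, 2 and 3 and 23, 16 and 44 in vehicle 1, 2 and 3. The sums were 791, 939 and 773 CPM with vemurafenib and 941, 1120.0 and 952 CPM with vehicle, with means of 834 ± 91.0 and 1004 ± 100.3 (SD, n = 3 each). The log2 ratio of the means was -0.27. The nearest libraries, vemurafenib 2 and vehicle 1, were 20 and 23 counts, and with library totals in place of TMM the groups overlapped (962 CPM in vemurafenib 2 against 902 in vehicle 3). No p-value is given for the sum, because the genes were chosen with earlier results known.

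The direction of the sum rested on Gpnmb. Without that gene the other 9 summed to 778, 657 and 720 CPM with vemurafenib and 614, 630.0 and 649 CPM with vehicle, a log2 ratio of 0.19. Since Gpnmb lay lower with vemurafenib than the sum did, leaving it out raises the ratio by construction. All 3 vemurafenib libraries then lay above all 3 vehicle libraries with TMM, as for 6.83% of the 4697 single genes with at least 10 counts. With DESeq2 size factors the groups overlapped (649 CPM in vemurafenib 2 against 654 in vehicle 3). Leaving out any single gene other than Gpnmb kept the ratio between -0.38 and -0.23. Without Gpnmb and Cd163, the remaining 8 averaged 568 ± 54.9 CPM with vemurafenib and 518 ± 94.8 CPM with vehicle, and the groups overlapped.

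**Figure D4:**
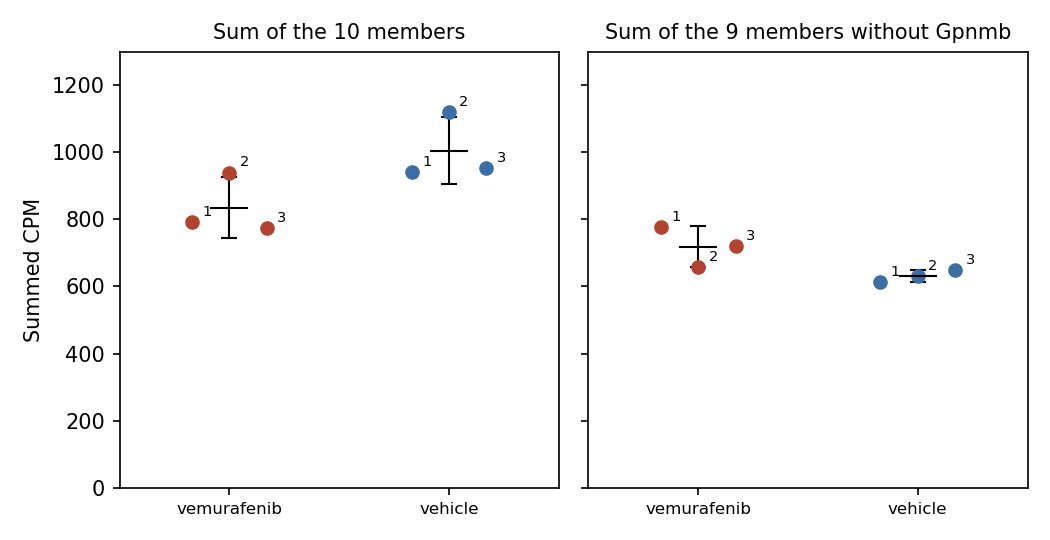
Summed CPM by library, vemurafenib left of vehicle, for the 10 genes (left) and for the 9 without Gpnmb (right), with replicate numbers beside the points and the mean and SD (n = 3) as black bars. The vemurafenib libraries lie below vehicle on the left (means 834 and 1004) and above it on the right (718 and 631). Of the 4697 single genes with at least 10 counts, 3.68% lay lower without overlap and 6.83% lay higher.

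Shares within the set do not depend on the scaling of libraries, and a lower share of one gene raises the others by construction. Gpnmb made up 1.64%, 30% and 6.90% of the set's counts in vemurafenib 1, 2 and 3, against 34.8%, 43.8% and 31.8% in vehicle 1, 2 and 3. The means were 12.8% ± 15.1 with vemurafenib and 36.8% ± 6.21 with vehicle (SD, n = 3 each). The exact 95% intervals were 0.0415% to 8.80% in vemurafenib 1 and 18.6% to 47.6% in vehicle 3, and those of vemurafenib 2 (11.9% to 54.3%) and vehicle 1 (16.4% to 57.3%) overlapped. Set against the same totals, 1.68% of the 4697 genes lay lower without overlap and 10.6% lay higher. An exact permutation test gave p = 0.1, two-sided, the smallest possible. Counted against Csf1r alone, Gpnmb stood at 0.0625, 0.667 and 0.182 counts per Csf1r count with vemurafenib and at 1.14, 1.75 and 0.700 with vehicle. These ratios carry the limit that Csf1r lies opposite exons of Hmgxb3.

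Csf1r held 36.4% ± 9.48 of the counts with vemurafenib and 33.6% ± 10.6 with vehicle. Cd163 held 34.4% in vemurafenib 1, more than any other gene there, and 5% in vemurafenib 2. Lgals3 held 8.20%, 10% and 20.7% in vemurafenib 1, 2 and 3 and 4.35%, 6.25% and 6.82% in vehicle 1, 2 and 3. Cd74 held 8.20%, 5% and 10.3% in vemurafenib 1, 2 and 3 and 4.35%, 0% and 2.27% in vehicle 1, 2 and 3. The groups did not overlap for Lgals3 or Cd74, each with the same exact permutation p = 0.1, as for the 10.6% of genes that lay higher against these totals. With Cd163 left out of the sum, a choice made after the data were seen, the mean Gpnmb share differed by -27.6 percentage points, vemurafenib minus vehicle, against -23.9 points with Cd163 in it.

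**Figure D5:**
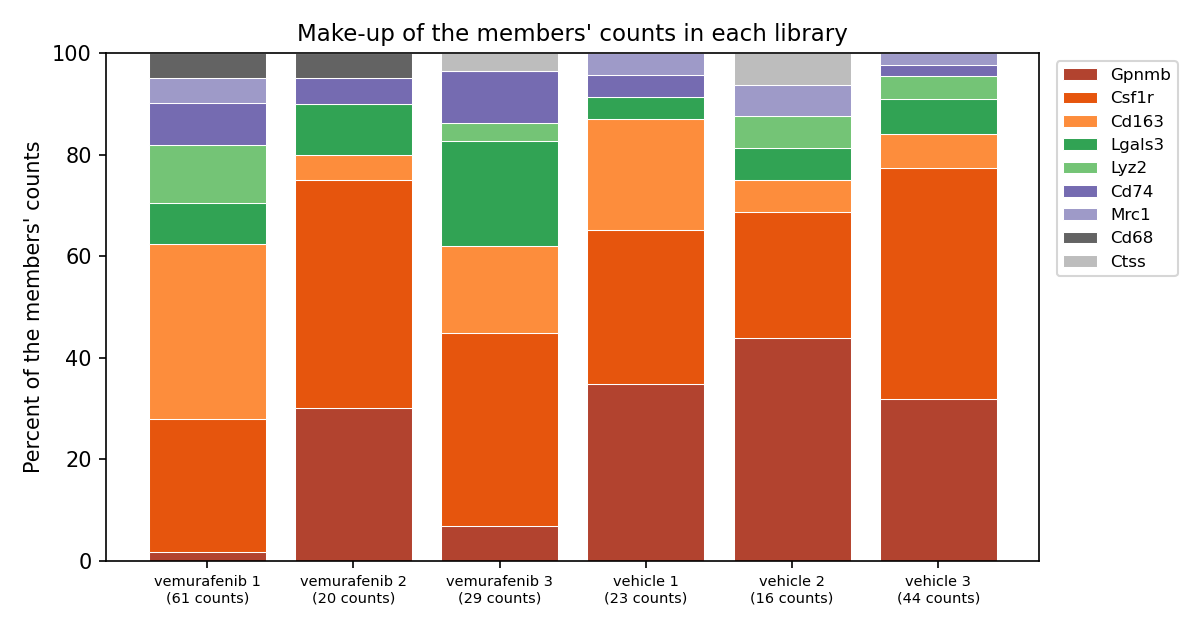
Percent of the set's counts held by each gene (Adgre1 has none), as stacked bars per library with the number of counts under each. The lowest block, Gpnmb, takes at most 30% in the vemurafenib libraries and at least 31.8% in the vehicle libraries.

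Of 6 lists of related genes outside the set, 0 genes passed the test in either direction. Over all genes, the looser fit called 0.0639% of 4697 higher and 0% lower, and the strict fit called 0 of 477. A result of 0 therefore says little about these lists, here and below. The 38 other macrophage and monocyte genes summed to 2454 ± 455 CPM with vemurafenib and 2589 ± 733 CPM with vehicle. Apoe, a lipid carrier that macrophages and many other cells make, held 307 of their 530 counts and was the only one past the strict filter, with a log2 fold change of -0.08 ± 0.44 (edgeR, adjusted p = 0.9954). Of the 8 with at least 10 counts, 5 had a positive and 3 a negative log2 fold change and 0 passed, with a median of 0.12 against 0.09 over all 4697 genes. Cebpb, a factor of myeloid and fat cells that lies opposite exons of Tmem189, had 172 ± 73.5 and 184 ± 87.7 CPM with vemurafenib and vehicle. The complement gene C1qa, named after its values were seen, had 14, 2 and 1 counts with vemurafenib and 0, 2 and 0 with vehicle.

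The 41 other lysosomal genes summed to 2661 ± 738 CPM with vemurafenib and 2967 ± 612 CPM with vehicle. Of these 37 had a count, 13 had at least 10, and among the 13 the log2 fold change was positive for 5 and negative for 8, with a median of -0.15 and 0 passing. Psap, the precursor of the saposins that help digest sphingolipids, had 259, 610.3 and 160.0 CPM in vemurafenib 1, 2 and 3 and 573, 420.0 and 498 CPM in vehicle 1, 2 and 3. Its log2 fold change was -0.70 ± 0.47 under the strict filter (edgeR, adjusted p = 0.9661). Like Gpnmb it was low in vemurafenib 1 and 3 and not in vemurafenib 2. Ctsa, the protective protein of lysosomal sialidase, held 194 counts at 811 ± 325 and 836 ± 272 CPM, and lies opposite Pltp and Neurl2. Acp2, a lysosomal acid phosphatase that lies opposite Ddb2, had 206 ± 188 and 136 ± 57.0 CPM. Lamp2, an abundant lysosomal membrane protein gene, had 0 counts. Mitf, Tfeb and Tfe3, the factors that drive lysosomal genes, had 3, 6 and 7.

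Genes of macrophage activation states numbered 21 and summed to 572 ± 201 CPM with vemurafenib and 536 ± 330 CPM with vehicle. The inflammatory markers Nos2, Tnf and Il1b had 0, 1 and 3 counts and the repair marker Arg1 had 3, too few for either state. Tgfb1, a growth factor of repair and fibrosis, had 166 ± 64.6 and 88.4 ± 48.7 CPM (log2 fold change 1.07 ± 0.76, edgeR, adjusted p = 0.9994). Vegfa had 137 ± 184 and 80.2 ± 45.3 CPM, with 13 of its 26 counts in vemurafenib 3. Stat6, the factor that carries the interleukin-4 signal and lies opposite exons of Nab2, had 104 ± 56.5 and 89.2 ± 49.6 CPM. Of the 3 genes of this list with at least 10 counts, 0 passed, and their median was 0.62.

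The 13 class II and costimulatory genes summed to 196 ± 59.7 CPM with vemurafenib and 99.5 ± 55.6 CPM with vehicle, from 38 counts, with 2 members testable and 0 passing (median 1.05). The 9 genes of the Csf1r ligands and related receptors summed to 210.5 ± 115 and 155 ± 137 CPM, with Csf2ra, a receptor subunit for GM-CSF, at 19 of 52 counts and a log2 fold change of 0.36 ± 0.89 (edgeR, adjusted p = 0.9994). Csf3r, the G-CSF receptor, had 4, 1 and 2 counts with vemurafenib and 0, 0 and 1 with vehicle. The 12 relatives of the set by family summed to 619 ± 38.1 and 573 ± 303 CPM. In that list 5 had at least 10 counts, of which 3 were positive, 2 negative and 0 passed, with a median of 0.03. Mrc2, the collagen receptor related to Mrc1, had 190.0 ± 87.8 and 169 ± 186 CPM, Ctsl had 125 ± 65.5 and 87.5 ± 57.3 CPM opposite Gm47123, and Adgre5 had 115 ± 137 and 124 ± 15.9 CPM opposite Ddx39.

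Markers of other immune cells were as sparse. Neutrophil genes summed to 376, 376 and 533 CPM in vemurafenib 1, 2 and 3 and to 450.1, 490.0 and 21.6 CPM in vehicle 1, 2 and 3. S100a9 and S100a8 held 53 and 13 of their 76 counts, while Ly6g, Elane, Cxcr2, Camp and Retnlg had 0. The sum is therefore not read as an amount of neutrophils. By library, S100a8 had 5, 3 and 5 counts with vemurafenib and 0 in every vehicle library (edgeR, adjusted p = 0.4068). Its partner S100a9 had 20, 3 and 12 against 11, 7 and 0. Lymphocyte genes had 11 counts, mast cell genes 11, and dendritic and Langerhans cell genes 28, with Cd207 at 0. Cd4 had 0 counts in the vemurafenib libraries and 2, 1 and 2 in vehicle 1, 2 and 3, too few for the looser filter. Among the 4697 genes with at least 10 counts, 3.68% lay lower with vemurafenib without overlap and 6.83% lay higher.

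Among 1531 other genes with at least 30 counts, those closest to the set's total over the 6 libraries were Ahsa2, Rbm4b and 9930014A18Rik. Their root mean square differences in centred log2 CPM were 0.08, 0.11 and 0.12, against a median of 0.55 over all genes compared. Ahsa2 lies opposite Usp34 and 1700030C12Rik, Rbm4b opposite Gm37206, and 9930014A18Rik opposite Fam84b. For Gpnmb alone, a comparison added after the data were seen, the closest were Tmem198b (0.55), Postn (0.56) and Med12l (0.62), against a median of 1.26. Tmem198b lies opposite Dnajc14 and Mmp19, and Med12l opposite Igsf10, P2ry12 and Gm43570. Postn encodes the matrix protein periostin of remodelling tissue. Its CPM were 104, 423 and 80.0 in vemurafenib 1, 2 and 3 and 286, 350.0 and 584 in vehicle 1, 2 and 3. It was picked for its likeness to Gpnmb, so its high value in vemurafenib 2 follows from that choice.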

How the data were processed

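Skin RNA of 6 libraries was sequenced, 3 per group. The authors deposited raw counts as whole numbers, 1 row per gene. HISAT2, HTSeq and the mm10 build are named in the submitters' processing notes, without versions, annotation or strand setting. Besides the 6 columns, 1 column matched no sample and was left out. The 10 genes, the lists and the tests were chosen with earlier results of these data known.

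Counts were used as deposited, with library sizes from all genes. The main test was edgeR 4.0.16 (R 4.3.3): filterByExpr (smallest count 10, smallest total 15), TMM, robust quasi-likelihood, group as the only term, and Benjamini-Hochberg adjusted p under 0.05 over all tested genes. Standard errors were derived from each log2 fold change and its F statistic. Since none of the 10 genes passed this filter, their fits come from the alternative with at least 10 counts in all. The fits were tested on simulated data. Alternatives were at least 1 count in all, other scalings, DESeq2 1.42.0, limma-voom (limma 3.58.1), a replicate block and leaving out each library. DESeq2, limma-voom, block and left-out libraries at the looser filter were added after seeing the data. No libraries had identical columns. Intervals are exact binomial at 95% and cover counting error only.

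Named genes were the 10 genes, the 3 most counted genes of each list, and the 3 genes closest to the set's total (prior count 2). Of these, 1 list gene is not reported here. Others are markers fixed in the lists, given as counts, unless said to be chosen later. Positions, merged exon lengths and opposite-strand overlaps come from GENCODE M21 (mm10) with bedtools 2.31.1, where 47966 of 48377 symbols (99.2%) matched. The start region is from the RefSeq table, which held 7 of the 10 genes.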

Additional observations from a re-analysis of the deposited data

How the results depend on the processing

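The count of 0 called genes with edgeR was kept under DESeq2 size factors, library totals, DESeq2 and limma-voom. It became 3 with at least 1 count in all, 3 with at least 10, and at the latter filter 2 with limma-voom, 2 with the replicate block and 0 with DESeq2. Leaving out 1 library gave 0 to 4 called genes over both filters, and at the strict filter 2 without vemurafenib 1. With at least 1 count the median log2 fold change of all genes was 0.42, so values from that fit carry this shift. The log2 ratio of the set's total (-0.27) became 0.19 without Gpnmb and -0.053 as a mean difference of log2 CPM per gene, and ran from -0.36 to -0.18 when 1 library was left out. The number of related lists with a higher total under vemurafenib, 4 of 6, ran from 2 (without vehicle 1) to 5 (without vemurafenib 3). Cd163 changed sign in 1 of 11 fits, and the ratio of mean CPM of Lyz2 was -1.50 on the log2 scale without vemurafenib 1. The cause was not tested.

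Same-numbered libraries did not deviate together (correlations 0.04, -0.08 and -0.33), so the numbers were not treated as pairs. With the replicate block edgeR called 0 genes under the strict filter, which did not hold Gpnmb. With at least 10 counts in all the block fit called 2 genes and gave Gpnmb an adjusted p of 0.3607. The set's total kept a ratio of -0.27.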
